A study of Drosophila melanogaster with 33 samples.

Results

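Chromosome 4 of Drosophila melanogaster was examined through its open chromatin regions in sorted brain cells. Peaks on this chromosome from all 33 ATAC-seq libraries were merged where they shared at least 1 bp, and a merged region was kept if it was called in at least 2 libraries. This gave 247 regions on chromosome 4, of 31994 in the whole genome and beside 26059 on the other autosome arms (2L, 2R, 3L and 3R).

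This chromosome is small and mostly packaged as heterochromatin, with HP1a and H3K9 methylation spread along its gene-bearing arm, and it is rich in transposon remnants. Its genes are nevertheless transcribed, and a chromosome-specific protein, POF, binds their nascent RNA. Among them are developmental regulators such as the Pax6 genes ey and toy, the Hedgehog effector ci and the Wnt effector pan, as well as genes of the synapse. Its distal end, like other fly telomeres, is capped by HeT-A and TART retrotransposons in place of a telomerase-made repeat.

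ATAC-seq uses the Tn5 transposase to cut accessible DNA, so that the number of tags at a summit follows local accessibility. Cells with GFP (clock neurons) were sorted apart from cells without it (non-clock cells, neurons and glia mixed) out of pooled adult brains of flies that all carried ClkGAL4 and UAS-GFP-NLS over a wild-type chromosome, so GFP marked nuclei of cells in which the Clk promoter fragment was active. Wild-type clock neurons were collected at ZT0 and ZT12 in a light-dark cycle (LD, 4 libraries each) and at CT24 and CT36 in constant darkness (DD, 3 each), where ZT counts hours from lights-on and CT does so from the former lights-on time. ZT0 and ZT12 are thus dawn and dusk, and CT24 and CT36 subjective dawn and dusk. Wild-type non-clock cells came from LD (4) and DD (3), without a collection time in the labels. The per01 flies, which carry a null allele of the clock gene period, gave clock neurons at CT24 and CT36 (4 each) and non-clock cells in DD (4). Their labels give the genotype per01/Y, which is that of males, whereas the study's methods speak of brains from both sexes and the wild-type labels give no sex. The sex of the libraries is therefore uncertain, and genotype and strain background cannot be told apart. The ClkGAL4 driver labels many kinds of clock neuron together, and a lower value in every cell cannot be told apart from fewer cells with the region open.

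Total tags ranged from 4.18 to 17.0 M (in units of 1000000) in the 22 clock libraries (median 9.57) and from 16.7 to 36.2 M in the 11 non-clock libraries (median 23.8), and each library called 150 to 244 peaks on chromosome 4. Depth therefore moved with cell type throughout, and its part in the cell type differences was not tested beyond the alternatives given. The sort was visible at its markers: the highest Clk region had a median of 21.9 tags per 1000000 total tags (CPM) in clock libraries and of 3.17 in non-clock libraries, and the medians of tim were 17.3 and 7.36. The glial gene repo was called in 1 of 22 clock libraries and in 11 of 11 non-clock libraries. Tags were recovered from the fold and P value at each summit, a region without a call in a library was given that library's lowest called tag number, and differences are on a log2(tags + 1) scale after median-of-ratios scaling.

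The sequences below are summit windows of the regions that the cell type and genotype comparisons turn on, read on the plus strand of dm6, with the 74 bases around the summit (the span over which each tag was spread) in capitals. The zfh2 intron had the highest mean CPM on the chromosome, the Sox102F promoter, the fuss region and the pan exon were among the regions with the largest differences between cell types, and the HeT-A element had the largest fitted difference between genotypes.
zfh2 intron, chr4:508499-508648: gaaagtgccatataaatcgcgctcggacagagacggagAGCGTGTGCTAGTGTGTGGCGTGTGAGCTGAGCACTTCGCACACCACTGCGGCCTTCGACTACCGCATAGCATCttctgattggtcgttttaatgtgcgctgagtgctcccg
Sox102F promoter, chr4:807348-807461: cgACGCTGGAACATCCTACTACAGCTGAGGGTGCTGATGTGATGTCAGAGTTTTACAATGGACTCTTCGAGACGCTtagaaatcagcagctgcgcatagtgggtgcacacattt
fuss intergenic, chr4:982750-982899: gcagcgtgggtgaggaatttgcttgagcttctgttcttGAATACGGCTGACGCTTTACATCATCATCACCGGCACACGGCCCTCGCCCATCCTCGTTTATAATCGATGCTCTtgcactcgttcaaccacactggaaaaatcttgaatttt
pan coding exon, chr4:104099-104248: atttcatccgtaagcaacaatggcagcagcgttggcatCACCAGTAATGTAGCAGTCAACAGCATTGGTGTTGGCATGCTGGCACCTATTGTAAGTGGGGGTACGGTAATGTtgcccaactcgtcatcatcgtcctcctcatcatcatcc
HeT-A near the distal end, chr4:1306410-1306559: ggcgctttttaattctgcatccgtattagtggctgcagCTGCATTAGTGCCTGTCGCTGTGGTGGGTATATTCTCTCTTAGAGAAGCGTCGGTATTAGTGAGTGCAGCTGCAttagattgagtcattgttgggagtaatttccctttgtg

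A second set shows motif matches in the 300-base windows at strong or cell-type-dependent summits, with the match in capitals. The zfh2 intron holds CACGTG, the E-box to which CLK and CYC bind. The gw intron holds TTATGTAA, the box of VRI and PDP1. The Sox102F intron and a copy of the DNA transposon 1360 near Syt7 hold GAGAGAG, the element of GAGA factor, which reads CTCTCTC on the other strand.
zfh2 intron with E-box, chr4:502632-502931: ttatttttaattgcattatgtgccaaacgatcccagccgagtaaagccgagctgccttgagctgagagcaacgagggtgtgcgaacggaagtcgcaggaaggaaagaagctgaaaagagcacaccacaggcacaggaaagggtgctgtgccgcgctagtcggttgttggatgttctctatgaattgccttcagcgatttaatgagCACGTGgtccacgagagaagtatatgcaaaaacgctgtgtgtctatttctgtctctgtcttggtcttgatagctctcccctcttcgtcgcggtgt
gw intron, chr4:660089-660388: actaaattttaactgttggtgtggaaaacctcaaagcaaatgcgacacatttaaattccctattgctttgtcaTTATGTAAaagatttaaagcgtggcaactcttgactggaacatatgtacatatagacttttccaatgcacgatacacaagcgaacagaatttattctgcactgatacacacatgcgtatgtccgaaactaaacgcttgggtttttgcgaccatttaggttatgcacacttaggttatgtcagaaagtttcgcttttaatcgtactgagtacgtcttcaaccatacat
Sox102F intron, chr4:807781-808080: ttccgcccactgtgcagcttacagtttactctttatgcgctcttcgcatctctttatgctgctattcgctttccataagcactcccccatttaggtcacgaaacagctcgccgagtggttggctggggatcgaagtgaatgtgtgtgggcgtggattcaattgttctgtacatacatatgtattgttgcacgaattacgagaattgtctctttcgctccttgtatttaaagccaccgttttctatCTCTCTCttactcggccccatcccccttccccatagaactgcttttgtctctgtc
1360 copy near Syt7, chr4:306651-306950: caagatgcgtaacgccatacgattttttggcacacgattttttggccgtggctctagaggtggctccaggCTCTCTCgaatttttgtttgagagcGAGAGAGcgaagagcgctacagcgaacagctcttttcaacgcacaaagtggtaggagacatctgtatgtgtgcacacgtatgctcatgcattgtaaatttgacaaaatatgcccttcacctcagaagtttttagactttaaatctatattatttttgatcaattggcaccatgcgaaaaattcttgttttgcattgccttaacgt

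Accessible regions were fewer per base on chromosome 4 than on the other autosome arms, but a given region was called more often. The chromosome held 183.2 regions per Mb against 239.1, a ratio of 0.766. Of the 247 regions, 102 (41.3%) were called in all 33 libraries, against 28.6% of the regions on the other arms. Within libraries, chromosome 4 carried 144.0 ± 19.6 called peaks per Mb (SD, n = 33) and the other arms 162.7 ± 16.4, and it was lower in 32 of 33 libraries (two-sided permutation test with paired sign flips, adjusted p = 1.67e-05 over 5 measures, from the smallest p that 100000 resamples can give). Peaks covered 4.36% of its bases against 4.81%, also lower in 32 libraries. By contrast, 66.6% of its regions were called in an average library against 59.3% elsewhere, higher in 32 libraries. Median tags per summit were taken over the regions called in all 33 libraries. Over all libraries together their mean was 9.83 CPM for both (permutation p = 0.992), with chromosome 4 higher in 15 libraries and lower in 15. The cell types went opposite ways. Clock libraries had a mean of 9.34 CPM on chromosome 4 and 9.81 on the other arms, and non-clock libraries 10.8 and 9.88.

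**Figure D1:**
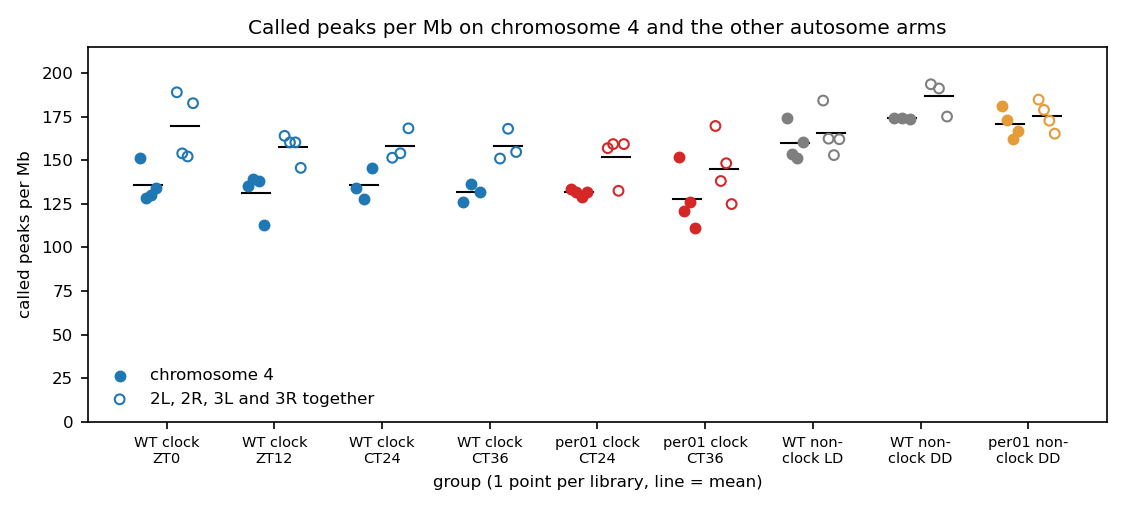
Called peaks per Mb on chromosome 4 and on the other autosome arms, with 1 point per library in each of 9 groups and a line at the group mean. Chromosome 4 ran from 111.3 to 152.1 in clock libraries and from 151.3 to 181.0 in non-clock libraries, and the other arms changed less between cell types.

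Clock libraries called 132.2 ± 10.1 peaks per Mb of chromosome 4 (n = 22) and non-clock libraries 167.7 ± 9.60 (n = 11). The ranges overlapped only at their ends. On the other arms the means were 156.6 and 174.8, and whether the gap to chromosome 4 differed between cell types was not tested. The clock libraries were also the shallower ones. Likewise 60% of the chromosome 4 regions were called in a clock library on average (49.0 to 70.0%) and 79.6% in a non-clock library (72.5 to 87.0%), against 56.1% and 65.9% elsewhere.

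Regions restricted to clock neurons were few on this chromosome. Only 5 of its regions (2.02%) were called in clock libraries alone, against 14.8% on the other arms, while 40 (16.2%) were called in non-clock libraries alone, against 12.4%. With at least 11 of 22 clock libraries calling a region and no non-clock library doing so, the count was 1 (0.405% against 3.99%). In the opposite direction, 13 regions (5.26% against 5.24%) were called in at least 6 of 11 non-clock libraries and in no clock library. No test was made of these shares, since calls depend on depth and depth differed between the cell types.

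The regions lay close to genes. A promoter region (summit within 250 bp of an annotated start) was found for 61 of the 80 protein-coding genes, and 69 had a region of any kind. Promoters made up 89 of the 247 regions (36%, against 25.1% on the other arms), exons 47 (19.0% against 9.76%), introns 57 (23.1% against 42.2%) and intergenic sequence 54 (21.9% against 22.9%). Promoters were the steadiest class, with 58 of 89 (65.2%) called in every library and a median of 6.80 CPM. Exonic regions were the weakest, with 7 of 47 (14.9%) in every library and 2.48 CPM, and introns (23 regions in every library, 4.04 CPM) and intergenic regions (14 regions, 4.28 CPM) lay between.

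Coverage was uneven along the chromosome. Bins of 100 kb held from 7 regions (bases 700001 to 800000) to 34 (400001 to 500000). The genes with most regions were the vesicle protein gene Cadps (16, distal telomeric regions to which it is merely the nearest gene included), the zinc finger homeodomain gene zfh2 (12) and the synaptic vesicle priming gene unc-13 (11). Ank, which links membrane proteins to the cytoskeleton, pan and the noncoding lncRNA:CR43437 had 8 each.

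Transposable elements contributed far more regions here than elsewhere. Annotated elements took up 24.8% of the chromosome, against 4.06 to 7.74% of the other arms, and 44 regions (17.8%) overlapped one, against 0.602%. In 28 (11.3% against 0.165%) the summit itself lay in an element. The most common family, INE-1, had a summit in 6 of its 344 annotated copies, none of them called in all libraries. Copies of 1360 held 8 summits of 60 elements, 2 of them called in every library, and HeT-A held 8, 1 of them in every library. Regions with a summit in an element were weaker than the rest, with a median of 3.39 CPM against 4.84 and with 4 of 28 called in every library (14.3%) against 98 of 219 (44.7%). The deposited values do not tell how reads that match several copies were placed, so tags in elements are uncertain as to the copy.

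Base composition also set the chromosome apart. The median GC content of the 300-base windows was 36.3% (range 20.7 to 57.3%), against 47% on the other arms. The E-box CACGTG, searched like all motifs on both strands, was found in 9 windows (3.64%, against 6.05% of all regions). Those were at PlexB, asRNA:CR45126, zfh2, MED26, Sox102F, unc-13, fuss, CG11076 and sv. TTATGTAA was in 7 windows (2.83% against 1.87%), the DNA replication-related element TATCGATA in 14 (5.67% against 2.86%), GAGAGAG in 11 (4.45% against 9.34%) and the core promoter motif GGTCACAC in 3 (1.21% against 2.92%). No motif of this set contains another, and a match is a description of the letters in the window.

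Among the regions called in every library, the highest mean CPM was that of an intron of zfh2 (r26170, chr4:506809-508868) at 44.8. In LD clock neurons it had 35.5 to 48.7 CPM (median 40.5, n = 8), in DD clock neurons 42.3 to 56.7 (median 49.7, n = 6) and in per01 clock neurons 40.4 to 48.1 (median 44.2, n = 8). Non-clock libraries had 41.6, 51.1, 47.8 and 48.3 in LD, 40.1, 41.5 and 48.7 in DD and 40.4, 43.2, 44.9 and 44.2 in per01. All groups overlapped. In DD, clock neurons were higher than non-clock cells by 0.23 (log2, limma adjusted p = 0.0562), and wild-type clock neurons were higher in DD than in LD by 0.21 (limma adjusted p = 0.0451). In DD clock neurons, per01 was lower than wild type by 0.24 (log2 −0.24, limma adjusted p = 0.0131).

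The next highest were an intron of the zinc finger gene dati (31.1 CPM on average), a HeT-A element at the distal end (28.9), an intron of the Sox factor gene Sox102F (26.6), a promoter of ey (24.7) and an intron of gw, which encodes the miRNA silencing protein GW182 (24.2). The ey promoter was nearly even across groups, with medians of 23.1, 25 and 25 CPM in LD, DD and per01 clock neurons. Its non-clock libraries had 21.9, 24.3, 24.3 and 24.6 in LD, 23.3, 24 and 25.8 in DD and 23.6, 27.3, 30.8 and 27.5 in per01, where clock neurons were lower by 0.17 (log2 −0.17, limma adjusted p = 0.0623). The gw intron passed the threshold in none of the 10 comparisons. The dati intron (chr4:388247-389535) had 24 to 28.9 CPM in LD clock neurons (median 27.2), 28.3 to 37.4 in DD clock neurons (median 32.4) and was higher in DD by 0.22 (limma adjusted p = 0.0121).

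**Figure D2:**
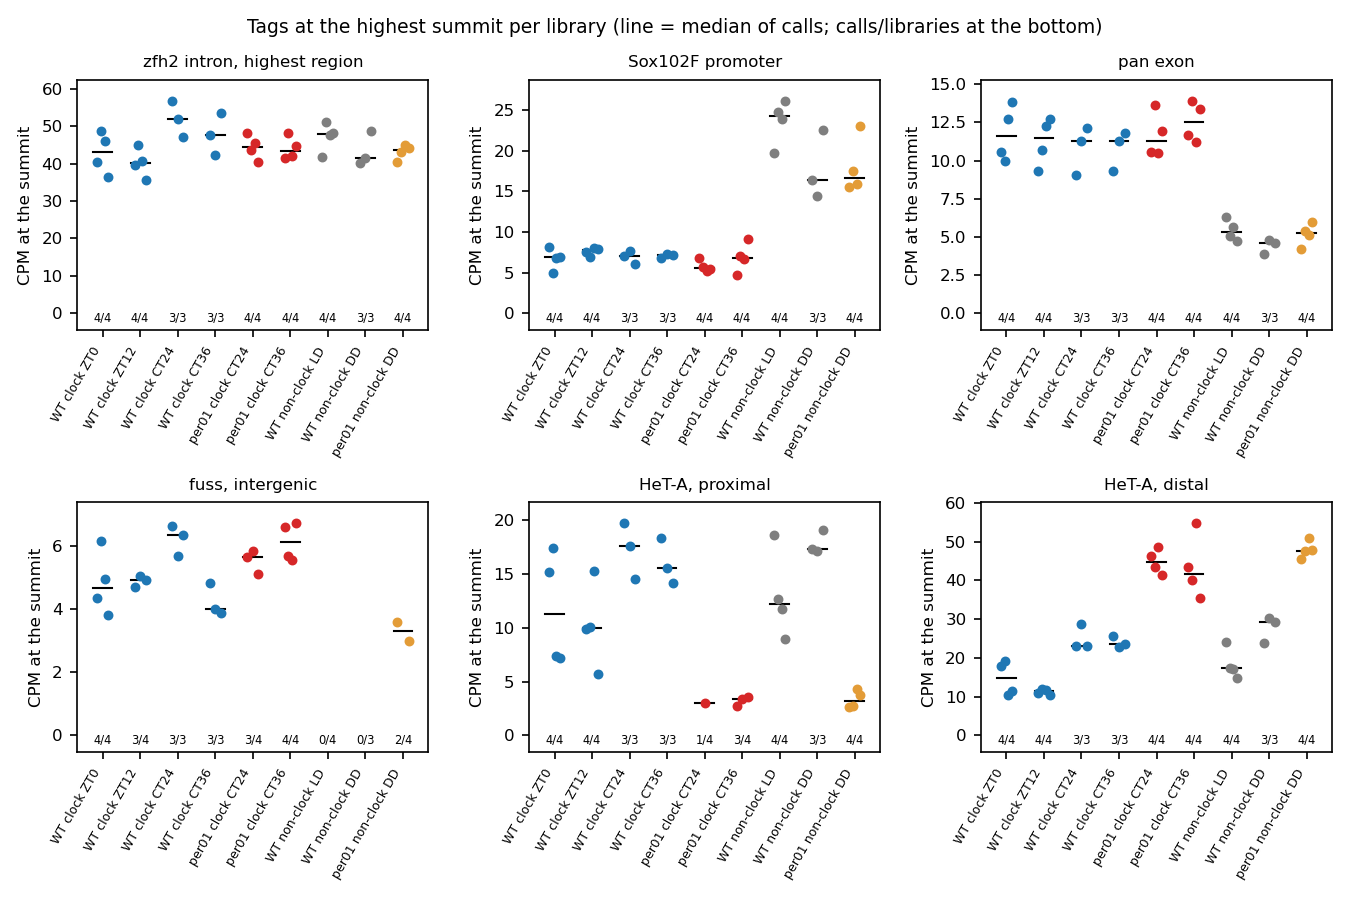
CPM at the highest summit of 6 chromosome 4 regions, with 1 point per library that called the region, a line at the median of the calls and the number of calling libraries below each of 9 groups. The zfh2 intron overlapped across groups, the Sox102F promoter was higher in non-clock cells and the pan exon in clock neurons. The fuss region was called mostly in clock neurons, and the HeT-A elements differed between genotypes.

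Whether chromosome 4 as a whole was less accessible in clock neurons was addressed with an offset, the median log2(tags + 1) over the 102 chromosome 4 regions called in every library minus that over the 7449 such regions on the other arms. In LD the clock libraries had an offset of −0.11 ± 0.064 (SD, n = 8) and the non-clock libraries one of 0.09 ± 0.081 (n = 4), which is −0.20 between them (exact permutation, two-sided p = 0.00404, or 0.0202 adjusted over 10 comparisons). In per01 clock libraries it was −0.03 and in their non-clock counterparts 0.20, and the difference of −0.23 had the smallest p that the design allows (exact permutation p = 0.00202, adjusted p = 0.0202). In wild-type DD the difference was −0.16 (exact permutation p = 0.0238, adjusted p = 0.0794), which missed the threshold of 0.05.

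The offset did not keep its size once GC content was taken into account. When a linear trend on window GC was taken out of each library, the differences were −0.02 in LD (exact permutation p = 0.701), 0.13 in DD (exact permutation p = 0.131) and −0.09 in per01 (exact permutation p = 0.0808). The DD difference turned its sign. In LD the adjusted p was 0.0606 without non-clock LD replicate 2, 3 or 4. The remaining comparisons, of times, light regimes and genotypes, gave offset differences from −0.05 to 0.11, none of which passed the threshold.

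**Figure D3:**
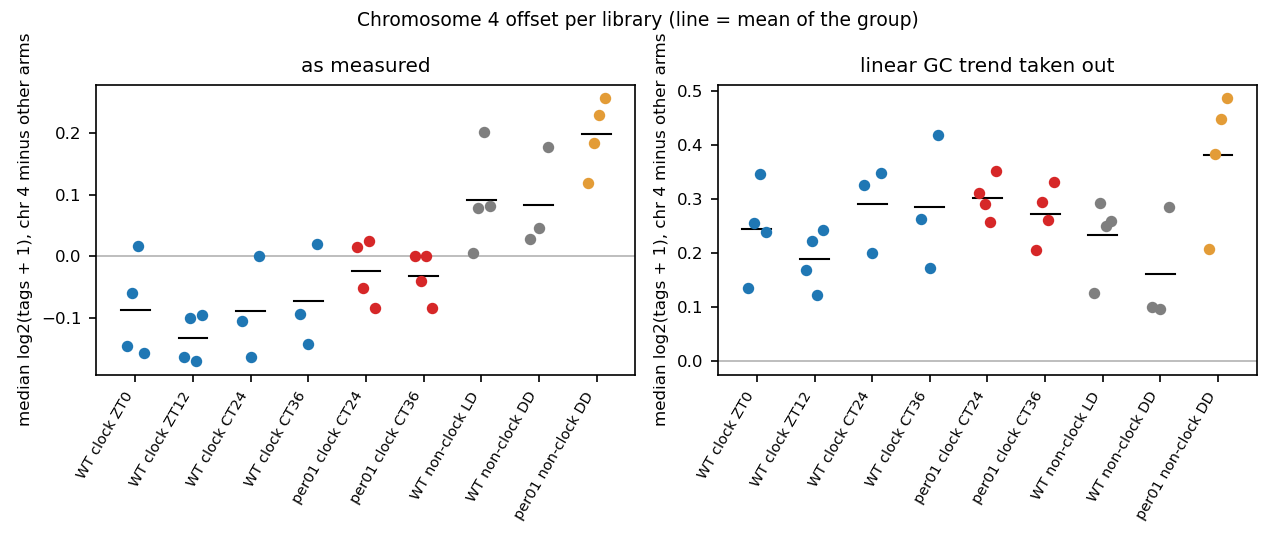
Offset of chromosome 4 against the other autosome arms (difference of median log2(tags + 1)) for each library, as measured and with the linear GC trend taken out, with a line at the mean of each of 9 groups. As measured, the LD clock libraries ran from −0.17 to 0.02 and the LD non-clock libraries from 0.01 to 0.20; with the trend out the cell types overlapped.

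Single regions on the chromosome were more often lower than higher in clock neurons. In LD, 29 of 189 tested regions were higher and 63 lower at a limma adjusted p below 0.1, where over all regions tested 33.9% were higher and 21.9% lower. In DD 28 were higher and 61 lower of 201 (27.6% and 24.9% of all regions), and in per01 20 were higher and 62 lower of 183 (26.5% and 21.1%). In either direction 55.8%, 52.5% and 47.7% of all regions passed. The median log2 difference of the chromosome 4 regions was −0.14, −0.14 and −0.15, against 0.05, −0.02 and −0.01 on the other arms and 0.04, −0.04 and −0.02 over all regions. The balance depended on the processing. With the linear GC trend taken out it was 46 higher and 34 lower in LD, 42 and 24 in DD and 27 and 31 in per01, beside 34% and 21.1%, 26.2% and 22.7%, and 26.4% and 21.6% of all regions. Scaled by total tags it was 21 and 88 in LD and 24 and 39 in per01, and with missing calls at the 10th percentile of called tags it was 42 and 57, 49 and 53, and 33 and 56. The scaling by total tags moved the median of all regions in LD from 0.04 to −0.07 and that of chromosome 4 from −0.14 to −0.25.

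The calls were also split by GC. Under 40% GC chromosome 4 had the larger share lower in LD and per01, though not in DD. GC was not matched within either part of the split, so the part of GC in these shares was not tested. Of the chromosome 4 regions under 40% GC, 6 of 130 were higher (4.62%) and 49 lower (37.7%) in LD clock neurons. The figures were 5 and 47 of 133 in DD (35.3% lower) and 5 and 43 of 122 in per01 (35.2% lower). Regions under 40% GC on the other arms were higher in 9.48%, 5.96% and 6.60% of cases and lower in 20.6%, 36.7% and 16.0%. Of the chromosome 4 regions at 40% GC or more, 23 of 59 were higher (39%) and 14 lower (23.7%) in LD, beside 40.4% and 21.0% on the other arms. In DD these were 23 and 14 of 68 (33.8% and 20.6%, beside 34.7% and 21.8% on the other arms). In per01 they were 15 and 19 of 61 (24.6% and 31.1%), against 33% and 21.2% on the other arms. Promoters of chromosome 4 were lower in 40%, 41.0% and 48.1% of cases, against 19.5%, 33.7% and 19.1% of promoters elsewhere.

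**Figure D4:**
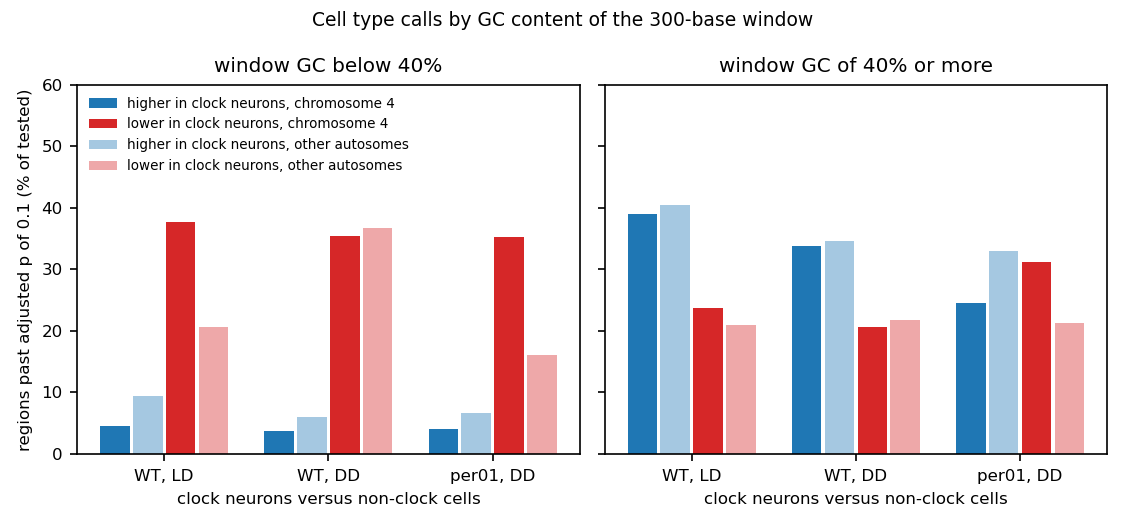
Share of tested regions called higher or lower in clock neurons (percent, limma adjusted p below 0.1) in the 3 cell type comparisons, split at 40% GC of the 300-base window, for chromosome 4 and the other autosome arms. Under 40% GC few regions were higher in LD, on chromosome 4 (4.62%) as on the other arms (9.48%). The shares lower were 37.7% against 20.6% in LD, 35.3% against 36.7% in DD and 35.2% against 16.0% in per01. At 40% or more the shares higher were 39% against 40.4% in LD and 24.6% against 33% in per01.

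A set of 172 chromosome 4 regions was tested in all 3 cell type comparisons. Of these 30 were lower in clock neurons each time, a share to be read beside 11.1% of all regions, and 13 were higher each time, beside 19.3%. The lower regions had a median GC of 34.7% and included 19 promoters, and the higher ones had 45.3% and 4 promoters. With the GC trend taken out, 11 of the 30 and 12 of the 13 kept their calls in all 3. The lower regions that kept them were at asRNA:CR43957, anne, lncRNA:CR44023, Syt7, Tdg, myo, Sox102F, PlexA and pho, with Sox102F and pho holding a pair each. The higher ones were at pan, Hcf, dati, mir-9385, lncRNA:CR44024, zfh2, fd102C, unc-13, fuss, toy and sv, with a pair at mir-9385.

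The lowest fitted difference in LD and in per01 was that of the Sox102F promoter (chr4:806971-807542), whose summit sequence is shown above. It had 4.93 to 8.19 CPM in LD clock neurons (median 7.22), 6.11 to 7.61 in DD (median 7.14) and 4.69 to 9.09 in per01 (median 6.18). The non-clock libraries had 19.7, 24.8, 23.9 and 26.1 in LD, 16.4, 14.4 and 22.6 in DD and 15.6, 17.5, 15.9 and 23.1 in per01. No clock library reached the lowest non-clock library. The differences were −1.61 (SE 0.133, limma adjusted p = 1.02e-07), −1.28 (SE 0.124, limma adjusted p = 1.30e-05) and −1.57 (SE 0.156, limma adjusted p = 4.78e-07). The GC trend left them at −1.62, −1.31 and −1.58. The neighbouring intron region of Sox102F (chr4:807718-808679) had medians of 22.5, 26.6 and 26.2 CPM in the clock groups and 27.2 to 31.6 in LD non-clock cells, with a difference of −0.23 in LD (limma adjusted p = 0.0195) and −0.33 in per01 (0.0123).

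The coding exon of pan (chr4:104050-104504), the TCF factor of Wnt signalling, was higher in clock neurons. It had 9.32 to 13.8 CPM in LD clock neurons (median 11.5), 9.03 to 12.1 in DD (median 11.3) and 10.5 to 13.9 in per01 (median 11.8). The non-clock libraries had 6.27, 5.08, 5.61 and 4.74 in LD, 3.89, 4.82 and 4.60 in DD and 4.24, 5.39, 5.13 and 5.98 in per01, all below every clock library. The differences were 1.18 (SE 0.132), 1.30 (SE 0.129) and 1.146 (SE 0.121), with limma adjusted p of 2.41e-06, 1.52e-05 and 8.48e-07. An intergenic region nearest to the same gene (r26068) moved the other way, by −0.42, −0.39 and −0.21.

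An intergenic region near fuss (chr4:982718-982874), a gene of the Ski/Sno family of transcriptional cofactors, was called in 7 of 8 LD, 6 of 6 DD and 7 of 8 per01 clock libraries. It was called in no wild-type non-clock library and in 2 of 4 per01 ones, at 3.58 and 2.99 CPM. The called clock libraries had medians of 4.92, 5.24 and 5.67 CPM. In wild type the region entered the LD and DD tests through its clock calls alone. The fitted differences, which rest on the value put in for a missing call, were 1.74, 2.01 and 1.11 (limma adjusted p = 6.62e-05, 1.25e-05 and 0.00545). In LD and DD these p-values add no support beyond the calls. The toy promoter (chr4:989243-990028) was higher in clock neurons by a smaller but steady margin. It had 18.1 to 24.5 CPM in LD clock neurons and 16.9, 16.4, 15.3 and 16.8 in LD non-clock libraries, with no overlap, and differed by 0.45 (limma adjusted p = 0.000104), 0.52 (0.000318) and 0.32 (0.000325). A promoter of sv, a Pax2-type factor, and a region of the forkhead gene fd102C were also higher, by 0.63, 0.39 and 0.30 and by 0.59, 0.39 and 0.32.

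Several regions were seen in non-clock cells with few or no calls in clock neurons. The anne region (chr4:131604-131731) was called in 0 of 22 clock libraries and in all 11 non-clock libraries, at 4.92, 4.27, 5.16 and 3.61 CPM in LD, 3.18, 4.61 and 4.99 in DD and 5.03, 4.88, 4.09 and 4.01 in per01. The fitted differences were −1.23 in LD, −1.19 in DD and −1.14 in per01. They rest on the values put in for the clock libraries, and the region entered the tests through its non-clock calls alone. The 1360 copy near Syt7 (chr4:306485-306901), Syt7 being a synaptotagmin of vesicle fusion, had 5.75, 6.29, 6.31 and 7.18 CPM in LD non-clock libraries and was called in 2 of 8 LD, 5 of 6 DD and 4 of 8 per01 clock libraries. It was lower in clock neurons by 1.56, 1.09 and 0.96 (log2 −1.56, −1.09 and −0.96, limma adjusted p = 1.37e-06, 0.00213 and 0.00287). A region of the semaphorin receptor gene PlexA (chr4:1027354-1027680) was called in all 11 non-clock libraries and in 4 of 8, 1 of 6 and 0 of 8 clock libraries. The ci promoter (chr4:56291-56616) was called in 1 of 22 clock libraries, in 2 of 4 LD non-clock libraries and in every DD and per01 non-clock library.

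The regions were also counted by functional group of the nearest gene. Regions of 15 genes for transcription factors and developmental regulators were called higher and lower about equally, 14 and 14 of 49 tested in LD, 15 and 13 of 53 in DD and 9 and 14 of 49 in per01, with medians of −0.04, 0.03 and −0.05. The group of 17 genes of the synapse, axon guidance and neuronal signalling holds Cadps, so its counts include the distal telomeric regions nearest to that gene. Its regions had 4 higher and 22 lower of 57, 4 and 17 of 62 and 1 and 19 of 53, with most past the threshold in neither direction. The medians were −0.18, −0.16 and −0.17. In this group, the TGF-beta ligand gene myo was lower by −0.52, −0.87 and −0.69 (limma adjusted p = 0.00323, 0.000658 and 0.000658), and a PlexA promoter by −0.28, −0.28 and −0.29. Housekeeping genes had 0 and 4 of 20, 1 and 5 of 19 and 0 and 4 of 18, with medians of −0.15, −0.20 and −0.21. Within that group the translational repressor gene 4E-T was at −0.38, −0.50 and −0.27, whereas the promoter of the ATP synthase subunit gene ATPsynbeta (18.8 CPM on average) passed in no comparison of cell types. These medians stand beside −0.14, −0.14 and −0.15 for all chromosome 4 regions, and regions with a summit in a transposable element had 3 and 7 of 17, 3 and 6 of 21 and 1 and 5 of 18.

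Almost no region of the chromosome passed the threshold by time of day, and few did over the whole genome. There 20 regions passed between ZT12 and ZT0 and 116 between CT36 and CT24 in wild type. The study, with read counts in another model, reported more peaks that differed between these times. A lack of calls here therefore does not show a lack of difference. Between ZT12 and ZT0 none of 156 tested regions passed (limma, 6 at an unadjusted p below 0.05), beside 0.103% of all regions (0.0359% higher and 0.0667% lower). Between CT36 and CT24 in per01 none of 147 passed (4 at an unadjusted p below 0.05), beside 0.00594%. Between CT36 and CT24 in wild type 1 of 154 passed, beside 0.635% of all regions (0.471% lower), and 15 were at an unadjusted p below 0.05. This was a dati promoter (chr4:393467-393702) with 6.09, 6.64 and 6.18 CPM at CT24 and no call at CT36. It entered the test through its CT24 calls alone. The fitted difference (−1.74, SE 0.194, limma adjusted p = 0.00273) rests on the value put in for the missing calls, so its p adds no support beyond the calls. In LD clock neurons this promoter was called in 2 of 4 libraries at ZT0 and in 3 of 4 at ZT12, and in per01 in 1 of 8. The count was 3 without CT36 replicate 3 and 2 without CT24 replicate 3. The E-box regions of the chromosome were not among those called by time, but with so few calls this cannot decide whether they change with time.

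More regions differed between light regimes, and most of them were higher in darkness. In clock neurons 17 regions were higher and 3 lower in DD than in LD, of 157 tested (10.8% and 1.91%). On the other autosome arms 10.4% were higher and 4.87% lower, so they leaned the same way. Over all regions, which include the X chromosome, 9.28% were higher and 12.7% lower. The chromosome 4 count was 13 without CT36 replicate 3. The toy promoter had 18.1 to 24.5 CPM in LD (median 20.1) and 23.1 to 29.1 in DD (median 26.1), higher in DD by 0.28 (limma adjusted p = 0.0121). A promoter region of Asator, which encodes a tau-tubulin kinase, had 5.55 to 7.46 CPM in LD (median 6.12) and 6.58 to 10.01 in DD (median 8.03), higher by 0.33 (limma adjusted p = 0.0301). The 3 regions called lower were a Syt7 exon, a promoter of the receptor gene Eph and an intron of the calcium pump gene PMCA. The Syt7 exon was called in 8 of 8 LD libraries, at 2.41 to 3.69 CPM, and in 1 of 6 DD libraries (−0.69, limma adjusted p = 0.00260), and the Eph promoter in 8 of 8 and 3 of 6 (−0.92, limma adjusted p = 0.0167).

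In non-clock cells 21 regions were higher and 1 lower in DD, of 210 tested (10% and 0.476%). On the other autosome arms 8.21% were higher and 2.45% lower, and over all regions 7.71% and 8.33%. The chromosome 4 count rested on 1 library: without non-clock DD replicate 2 no region passed (limma, 22 at an unadjusted p below 0.05), and it was 35 without LD replicate 1. Among the largest differences, a zfh2 region was called in 1 of 4 LD libraries, at 1.85 CPM, and had 2.11, 3.76 and 3.53 CPM in DD (1.1, limma adjusted p = 0.0179). The ci promoter had 2.76 and 2.94 CPM in the calling LD libraries and 3.21, 4.70 and 4.69 in DD (1.08, limma adjusted p = 0.0456).

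Between per01 and wild type in DD, telomeric elements were among the regions with the largest differences. In clock neurons 9 regions were higher and 9 lower of 151 tested, beside 7.69% and 6.87% of all regions. With scaling by total tags this was 19 and 7, and with the GC trend taken out 6 and 10. In non-clock cells 7 were higher and 9 lower of 208, beside 2.19% and 2.68% (4.87% in either direction). That count was 10 without per01 replicate 2 and 8 without wild-type replicate 1 or 2.

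Telomeric elements near the distal end held the summits of 10 regions (between bases 1272171 and 1319391), 8 in HeT-A, 1 in TART-A and 1 in TART-C. Among clock libraries 2 were higher and 4 lower in per01, and among non-clock libraries 3 and 4, so they held 6 of the 18 and 7 of the 16 called regions. The proximal HeT-A region of the pair in the plot of CPM (r26305, chr4:1305863-1306875, in an element annotated on the minus strand) had 14.1 to 19.7 CPM in 6 of 6 wild-type DD clock libraries (median 16.6). In per01 clock neurons it was called in 4 of 8 libraries at 2.71 to 3.59 CPM. The non-clock libraries had 17.4, 17.1 and 19.1 in wild type and 2.67, 2.69, 4.32 and 3.71 in per01. Genotypes did not overlap in either cell type, with differences of −2.69 (SE 0.148, limma adjusted p = 8.40e-10) and −2.41 (SE 0.164, limma adjusted p = 1.20e-05).

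The HeT-A region nearest to the chromosome end (r26306, chr4:1318372-1319391) differed in the opposite direction. It had 22.9 to 28.8 CPM in wild-type DD clock neurons (median 23.3) and 35.4 to 54.7 in per01 (median 43.5). Non-clock libraries had 23.8, 30.4 and 29.3 in wild type and 45.4, 47.5, 51.0 and 47.9 in per01. The per01 libraries were the higher ones throughout, by 0.77 (SE 0.0717, limma adjusted p = 1.88e-06) and 0.81 (limma adjusted p = 0.000193). Another HeT-A region (chr4:1295118-1295285) was called in 2 of 6 wild-type and 8 of 8 per01 clock libraries and was higher by 1.30 (limma adjusted p = 5.08e-05) and 0.83 (0.0341), while r26301, also in HeT-A, was lower by −1.29 (limma adjusted p = 5.81e-05) and −1.26 (0.00151).

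Telomeric elements also differed with regime in wild type. In LD clock neurons the region nearest to the end had 10.4 to 19.3 CPM (median 11.6), below all DD clock libraries, a difference of 0.88 (limma adjusted p = 0.000118). In non-clock cells it had 24.2, 17.5, 17.2 and 14.8 in LD, and DD was higher by 0.64 (limma adjusted p = 0.0214). There the regimes overlapped, with 23.8 CPM in the lowest DD library, and no call of this comparison was kept without non-clock DD replicate 2. The number of telomeric elements varies between fly stocks and was not measured here, so that accessibility and copy number cannot be told apart for these regions.

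Outside the telomere, an intron region of zfh2 with an E-box (chr4:502639-503087, singled out after its values were seen) was lower in per01. It had 22.7 to 28.9 CPM in wild-type DD clock neurons (median 25.7) and 14.6 to 22.6 in per01 (median 20.2), with no overlap (−0.50, SE 0.10, limma adjusted p = 0.00388). In non-clock cells it had 20.7, 24.2 and 24.8 in wild type and 17.4, 19.5, 19.9 and 19.0 in per01 (−0.27, limma adjusted p = 0.0769). The Asator promoter region had 3.62 to 6.46 CPM in per01 clock neurons (median 4.48), below all 6 wild-type DD libraries (−0.85, limma adjusted p = 0.000974). In non-clock cells a PlexA intron had 4.82, 4.64 and 4.60 CPM in wild type and no call in 4 per01 libraries. It entered the test through its wild-type calls alone, and the fitted difference (−1.66, limma adjusted p = 0.000149) rests on the value put in for the missing calls. A 1360 copy near the distal end was lower as well (−1.23, limma adjusted p = 0.00125).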

How the data were processed

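Peaks of 33 ATAC-seq libraries were analysed. The authors trimmed reads with cutadapt 4.1, aligned them to dm6 with Bowtie2 2.4.5, removed mitochondrial reads with SAMtools 1.15.1 and duplicates with Picard 2.27.4, and called peaks in each library separately, not on pooled samples, with MACS2 2.2.7.1 without a control, spreading each tag end over 74 bp. The treatment of multi-mapping reads is not given in the sources used here. The deposited lists hold, at each summit, a fold ratio over background, −log10 P and −log10 q values, and a display score, which was not used here; the lowest −log10 q was 3.01.

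Tags at each summit were recovered from the deposited fold ratio and P value, and all were whole within 0.02. Total tags came from the background of each list over a genome of 120000000 bp, and CPM is tags per 1000000 total tags. The recovery was tested on simulated data. A region took the highest summit of each library, and a missing call the library's lowest called tags. The fitted difference and p of a region with missing calls therefore rest in part on that value. log2(tags + 1), after median-of-ratios scaling, was fitted with limma 3.58.1 (trend, R 4.3.3) in 10 comparisons over the regions whose calls numbered no fewer than the libraries of the smaller group. P values were adjusted over all regions tested (Benjamini-Hochberg, threshold 0.1), and differences are the first-named group minus the other. Libraries of a group are taken as separate samples by their labels, so p-values measure the spread between these samples, which may be technical. Offsets were compared by exact permutation tests and chromosome measures by 100000 sign flips (Python 3.11.15, SciPy 1.17.1).

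Windows of 300 bases at the top summit were read from the RefSeq dm6 assembly, and genes and transposable elements were taken from Ensembl BDGP6.54 annotation of that assembly. Regions named were the 6 with the highest mean CPM, those past the threshold in each comparison (at most the 6 with the largest difference) and examples from gene lists. Members, lists and tests were chosen with earlier results of these data known, and the GC alternative for counts of regions was chosen after seeing the data.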

Additional observations from a re-analysis of the deposited data

Results flagged for a closer look

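In 60 groups of 4 libraries, examined over 12 values, 4 had a library far from the other 3. Chance gives such a gap in about 1 of 20 groups, and no explanation was tested. The number of chromosome 4 peaks per Mb was lowest in wild-type clock ZT12 replicate 4, at 112.7 against 135.0 to 139.5. The ey promoter had 21.9 CPM in wild-type non-clock LD replicate 1, against 24.3 to 24.6. The zfh2 intron region with an E-box had 24.7 CPM in wild-type clock ZT12 replicate 3, against 20.7 to 21.3, and 19.8 in wild-type non-clock LD replicate 4, against 23.3 to 23.8.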

How the results depend on the processing

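With summits merged within 150 bp the density ratio was 0.853, and with −log10 q of at least 5 the median CPM difference turned to −0.253. Restricted to regions called in every compared library, 55, 59 and 53 chromosome 4 regions passed in the LD, DD and per01 cell type comparisons, and 2 between CT36 and CT24, which was also 2 with missing calls at the 10th percentile. Replicate numbers were not used to pair the libraries, and whether libraries of the same number share a preparation is not known from the labels. With the replicate block 11 regions passed between regimes in non-clock cells. With the GC trend out the offset differences were −0.016 in LD, 0.13 in DD, −0.094 in per01, −0.00629 for CT36 and −0.000213 for genotype in clock neurons. In regions called in every compared library they were −0.19 in DD (adjusted p = 0.0397, exact permutation), −0.049 for CT36, 0.019 for CT36 in per01, 0.037 for regime and −0.057 for genotype in non-clock cells; as means over regions −0.16 in DD (adjusted p = 0.0397, exact permutation), −0.00177 for CT36 and 0.017 for regime in non-clock cells. The causes were not tested.

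Leaving out each library, offset differences ran from −0.23 to −0.17 in LD, −0.19 to −0.12 in DD, −0.25 to −0.21 in per01, −0.07 to −0.01 for ZT12, −0.029 to 0.062 for CT36, −0.028 to 0.010 for CT36 in per01, 0.01 to 0.05 for regime in clock neurons and −0.056 to 0.028 in non-clock cells, and for genotype 0.04 to 0.07 and 0.09 to 0.16. Counts ran from 75 to 95, 75 to 92 and 66 to 83 by cell type, 1 to 3 for CT36, 13 to 24 and 0 to 35 by regime and 14 to 19 and 8 to 21 by genotype.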

Other observations

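Whether an effect differed between groups was tested with 6 interaction terms in limma, and no chromosome 4 region passed the threshold in any of them. For the cell type difference, 18 of 187 tested regions were at an unadjusted p below 0.05 between DD and LD and 12 of 186 between genotypes, while 143 and 10 regions passed over the whole genome. For the time difference the numbers were 6 of 152 between regimes and 10 of 147 between genotypes, with 2 and 0 passing over the whole genome. For the genotype and the regime difference between cell types they were 12 of 164 and 14 of 168, with 4 and 45. An effect that passed the threshold in one cell type, regime or genotype but not in the other is therefore not shown to differ in size between them.

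Between light regimes in non-clock cells there were 6 higher and 1 lower of 55 tested regions for transcription factors, 8 and 0 of 65 for the synapse and 1 and 0 of 22 for housekeeping genes, beside 7.71% higher and 8.33% lower of all regions. On the other autosome arms 8.21% were higher and 2.45% lower. The synapse count includes the distal telomeric regions nearest to Cadps, and telomeric elements had 3 higher and 0 lower. No call of this comparison was kept without non-clock DD replicate 2. A copy of INE-1 near Gat, the GABA transporter gene, was among the higher ones (0.94, limma adjusted p = 0.0269), as was CG31999 (0.79, limma adjusted p = 0.0412). Between genotypes, transcription factor regions had 2 higher and 4 lower of 38 in clock neurons and 2 and 2 of 56 in non-clock cells. Synapse regions had 3 and 4 of 43 and 4 and 7 of 62, but these counts include the distal telomeric regions nearest to Cadps. Telomeric elements alone had 2 higher and 4 lower in clock neurons and 3 and 4 in non-clock cells, so most of these calls are not in synapse genes. Over all regions 7.69% were higher and 6.87% lower in clock neurons, and 2.19% and 2.68% in non-clock cells.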
